A study of Mus musculus with 9 samples.

Results

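The proteasome is the protease that breaks down most short-lived and damaged proteins of the cytosol and nucleus. Its subunits and dedicated assembly factors were selected on gene symbol, as Pomp and every gene whose symbol starts with Psma, Psmb, Psmc, Psmd, Psme, Psmf or Psmg followed by a number, without pseudogenes. The rule found 51 of 24421 symbols, of which 50 had enough counts to be tested. The choice of the family was made with the fall of Pomp against the Fc libraries already known, so Pomp's values against Fc are given as a description, and no share of the family is read as support. The name describes the set with 2 exceptions. Psmc3ip encodes a cofactor of meiotic recombination, and Psme2b is a copy of Psme2 made from its RNA.

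The study used choroidal neovascularization (CNV), in which a laser burn breaks the Bruch membrane and choroidal vessels grow through the gap. Its title asks about Tie2 activation beside VEGF blockade. Male mice, 8 weeks old, were given 4 burns in each eye and 5 µg of 1 of 3 proteins into the vitreous, so the laser lesion and the injection were common to every group. Fc, the constant part of an antibody, was the control. ABTAA is an antibody against angiopoietin 2 that turns on Tie2, a receptor of endothelial cells. VEGF Trap catches VEGF before it reaches its receptors. The labels used here name no strain, no transgene and no animal behind a library. Laser capture took each lesion with its margin of pigment epithelium and choroid, and each of the 3 groups had 3 RNA libraries. The p-values therefore measure the spread between these libraries, which may be technical. The Fc libraries are grouped by their titles, while the headings of their tables carry a knockout control's name.

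Libraries held 6335805 counts (ABTAA 3) to 14439835 counts (VEGF Trap 2), and 3 counts corresponded to 0.208 to 0.474 CPM, the counts scaled to a library of 1e+06. This floor covers counting error only. Levels below are CPM scaled by TMM, a factor that corrects for library composition, and a mean is given ± SD over 3 libraries. Libraries were made from the 3′ ends of transcripts, so a level is not set beside that of another gene. Differences are log2 fold changes ± SE from edgeR's quasi-likelihood test, with p adjusted by Benjamini-Hochberg over 14054 genes and a threshold of 0.05. Pigment epithelium markers summed to 1348 to 2113 CPM in Fc, 1666 to 2401 in ABTAA and 1744 to 2171 in VEGF Trap, and 0 of 8 passed the threshold in any comparison. The libraries are a mixture of cells, and fewer cells of a type and less RNA per cell cannot be told apart in any result that follows.

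The 20S core of the proteasome is a barrel of stacked rings. The outer rings are built from alpha subunits and gate the entry, and the inner rings are built from beta subunits, of which those encoded by Psmb5, Psmb6 and Psmb7 cut peptide bonds. Pomp, a small chaperone, joins the half-barrels and is the first substrate that the finished core destroys, and the Psmg proteins build the alpha ring before it. The 19S cap recognises ubiquitin, and its Psmc ATPases unfold the substrate and thread it into the core. In inflamed tissue and in cells of the immune system, Psmb8, Psmb9 and Psmb10 can replace the constitutive cutting subunits and form the immunoproteasome, which favours peptides for display on MHC class I.

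The promoters of Pomp and of the ATPase gene Psmc1 are shown because these genes lay on opposite sides of Fc in every treated library and have no 3′ copy. Pomp lies on chromosome 5 from 147860461 to 147876456 (plus strand, GENCODE M21, GRCm38, the assembly that mm10 names), and Psmc1 on chromosome 12 from 100110154 to 100123405 (plus strand). The sequences are RefSeq's on GRCm38.p6, plus strand, from 250 bases before to 50 bases after RefSeq's start, at chr5:147860378-147860677 and chr12:100109952-100110251. GENCODE's start of each gene lies inside its window and before RefSeq's start. The ETS cores marked below therefore lie inside the genes as GENCODE annotates them. Capitals mark the ETS core CCGGAAG (or CTTCCGG on the other strand) and the CCAAT box.
Pomp: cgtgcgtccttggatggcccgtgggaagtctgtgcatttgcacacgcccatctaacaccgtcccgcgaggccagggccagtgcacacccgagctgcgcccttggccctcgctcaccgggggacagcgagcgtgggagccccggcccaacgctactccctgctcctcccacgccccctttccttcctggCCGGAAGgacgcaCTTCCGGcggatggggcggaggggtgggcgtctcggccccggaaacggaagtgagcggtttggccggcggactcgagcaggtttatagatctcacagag
Psmc1: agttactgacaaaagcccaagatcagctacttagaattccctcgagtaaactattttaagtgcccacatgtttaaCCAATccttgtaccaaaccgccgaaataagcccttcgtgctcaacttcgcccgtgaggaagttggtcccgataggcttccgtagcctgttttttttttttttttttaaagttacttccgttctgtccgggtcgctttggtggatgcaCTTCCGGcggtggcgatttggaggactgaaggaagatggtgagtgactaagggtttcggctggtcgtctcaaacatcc
The ETS core is the letters bound by a family of transcription factors active at many housekeeping promoters, and it was searched for after Pomp's promoter had been read. Pomp's window held 2 matches to it and 0 to CCAAT, while that of Psmc1 held 1 of each. Counting 1 promoter a gene, the first that the table lists, 15 of 43 members (34.9%) held the ETS core on either strand, against 9.12% of 27025 promoters of the same length. A second listed start of Psma6, not counted, also held it. CCAAT was present in 34.9% of the members and 37.9% of all promoters. The core of the antioxidant response element, TGACNNNGC, read on both strands and bound by NRF1 and NRF2, which induce proteasome genes, was present in 14% and 12.5%. A match is a string of letters and not a site shown to be bound.

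The assembly factor Pomp had the largest fall of the family in ABTAA and, leaving aside the barely detected Psma8, in VEGF Trap. Its level was 308, 295 and 282 CPM in the Fc libraries 1, 2 and 3. It was 131, 142 and 181 CPM in the ABTAA libraries, and 159, 165 and 143 CPM in the VEGF Trap libraries. All 6 treated libraries lay below the lowest Fc library, by a gap wider than the range within any of the groups. The means were 295 ± 13.2, 151 ± 26.4 and 156 ± 11.5 CPM, which is a log2 fold change of -0.97 ± 0.13 in ABTAA and -0.92 ± 0.12 in VEGF Trap. No transcript 3′ end of Pomp had a copy elsewhere among annotated transcripts. Without ABTAA 2, its log2 value in ABTAA was -0.92 and missed the threshold (adjusted p = 0.0669).

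The other 4 assembly factors did not pass the threshold against Fc in either treatment. Psmg1, which pairs with Psmg2 to build the alpha ring, differed by 0.11 ± 0.21 in ABTAA and -0.06 ± 0.21 in VEGF Trap. Its partner Psmg2 had values of -0.25 ± 0.26 and -0.45 ± 0.26, and Psmg3 had -0.03 ± 0.14 and -0.31 ± 0.14. Psmg4, the partner of Psmg3, ranged from 8.74 to 11.4 CPM in Fc, from 8.47 to 15.5 in ABTAA and from 9.48 to 17.9 in VEGF Trap (0.09 ± 0.27 and 0.49 ± 0.27). The 5 factors together summed to 361 to 392 CPM in Fc, 202 to 266 CPM in ABTAA and 212 to 237 CPM in VEGF Trap, and Pomp supplied nearly all of that difference.

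**Figure D1:**
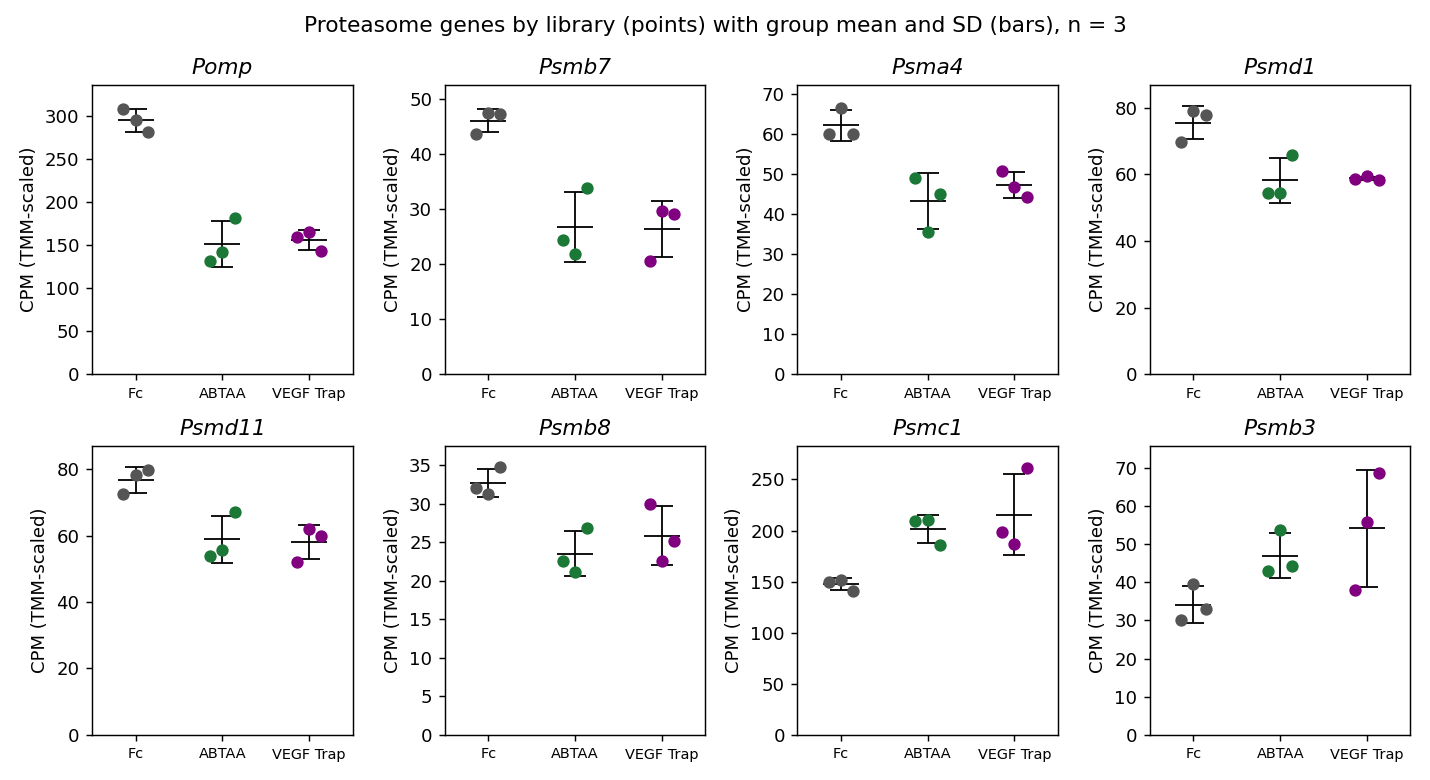
Level in CPM (TMM-scaled, vertical axis from 0) of 8 proteasome genes in the 3 groups, with a point for each library and bars for the mean and SD. Pomp, Psmb7, Psma4, Psmd1, Psmd11 and Psmb8 are lower and Psmc1 is higher in all 6 treated libraries than in any Fc library, while for Psmb3 VEGF Trap 1 (38 CPM) lies inside the Fc range of 30.1 to 39.5.

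Psmb7, the constitutive subunit with trypsin-like activity, was the other member below the threshold. Its level was 43.6, 47.4 and 47.2 CPM in Fc, 24.4, 21.8 and 33.9 CPM in ABTAA, and 20.6, 29.7 and 29.1 CPM in VEGF Trap. The groups did not overlap, and the highest treated library, ABTAA 3, was still under the lowest Fc library, Fc 1. The means were 46.1 ± 2.13, 26.7 ± 6.39 and 26.5 ± 5.06 CPM. The log2 fold change was -0.80 ± 0.18 in both treatments, with adjusted p = 0.0442 for ABTAA and 0.046 for VEGF Trap. The call was lost in 6 of 9 omissions of a library for ABTAA and in 7 of 9 for VEGF Trap. For ABTAA, the adjusted p was 0.0799, 0.158 and 0.104 with Fc 1, 2 or 3 omitted, 0.115 and 0.197 with ABTAA 1 or 2 omitted and 0.0521 with VEGF Trap 2 omitted. It was 0.0261, 0.0252 and 0.0489 with ABTAA 3, VEGF Trap 1 or VEGF Trap 3 omitted, and over all 18 alternatives it ran from 0.00109 to 0.197. For VEGF Trap, it was 0.0967, 0.174 and 0.111 without Fc 1, 2 and 3, 0.0504 without ABTAA 1, and 0.0987, 0.0649 and 0.098 without VEGF Trap 1, 2 and 3. It was 0.0495 and 0.0355 without ABTAA 2 and 3, within a range of 0.000801 to 0.174. The log2 value was -0.67 or lower in all 18 alternatives in ABTAA, and -0.64 or lower in all 18 in VEGF Trap.

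Psmb7 lies on the minus strand of chromosome 2 from 38588036 to 38644087, and the last bases of its transcripts overlap those of Nek6, a mitotic kinase, on the plus strand. The strand setting of the counting is not given in the sources used here, so reads of the overlap cannot be told apart. Nek6 itself had 95.4 ± 7.78 CPM in Fc, 72.4 ± 8.26 in ABTAA and 73.8 ± 1.4 in VEGF Trap, with log2 differences of -0.40 ± 0.12 (adjusted p = 0.105) and -0.37 ± 0.12 (adjusted p = 0.138). Counts of Nek6 per count of Psmb7 were 1.99 to 2.16 in Fc, 2.4 to 3.25 in ABTAA and 2.46 to 3.54 in VEGF Trap. The ratio was thus higher in each treated library than in each Fc library, and it got no test.

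Over the family, 2 of 50 members were called lower and 0 higher in ABTAA, beside 0.555% of all tested genes called lower and 0.847% called higher. In VEGF Trap the same 2 genes, Pomp and Psmb7, were called lower and 0 higher, beside 0.512% of all genes in each direction. At an unadjusted p under 0.05, 9 members were lower and 2 higher in ABTAA (8.23% and 8.64% of all genes), and 9 were lower and 4 higher in VEGF Trap (7.49% and 7.89%). Both comparisons use the same Fc libraries, so their resemblance is no independent repeat. The median log2 difference of the 50 members was -0.03 in ABTAA and -0.11 in VEGF Trap, beside -0.00 and 0.00 over all tested genes and a median SE of 0.14. A fold below 0 was seen for 29 of 50 members in ABTAA (50.4% of all genes) and 36 of 50 in VEGF Trap (49.9%).

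Non-overlap of the libraries gave a wider view of the same values. In ABTAA, 16 members (32%) had all treated libraries below all Fc libraries, where 11.3% of all genes did, and 6 members (12%) had them all above, where 11.7% did. In VEGF Trap, the counts were 13 members (26%) below, beside 10.5% of all genes, and 2 members (4%) above, beside 10.4%. The 11 members below in both were Pomp, Psma4, Psma7, Psmb7, Psmb8, Psmc5, Psmd1, Psmd11, Psme2, Psme2b and Psme4, and 5.24% of all genes were below in both. The 2 above in both were Psmc1 and Psmd9, beside 5.22% of all genes. These names follow from their values and include genes that did not pass the test.

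**Figure D2:**
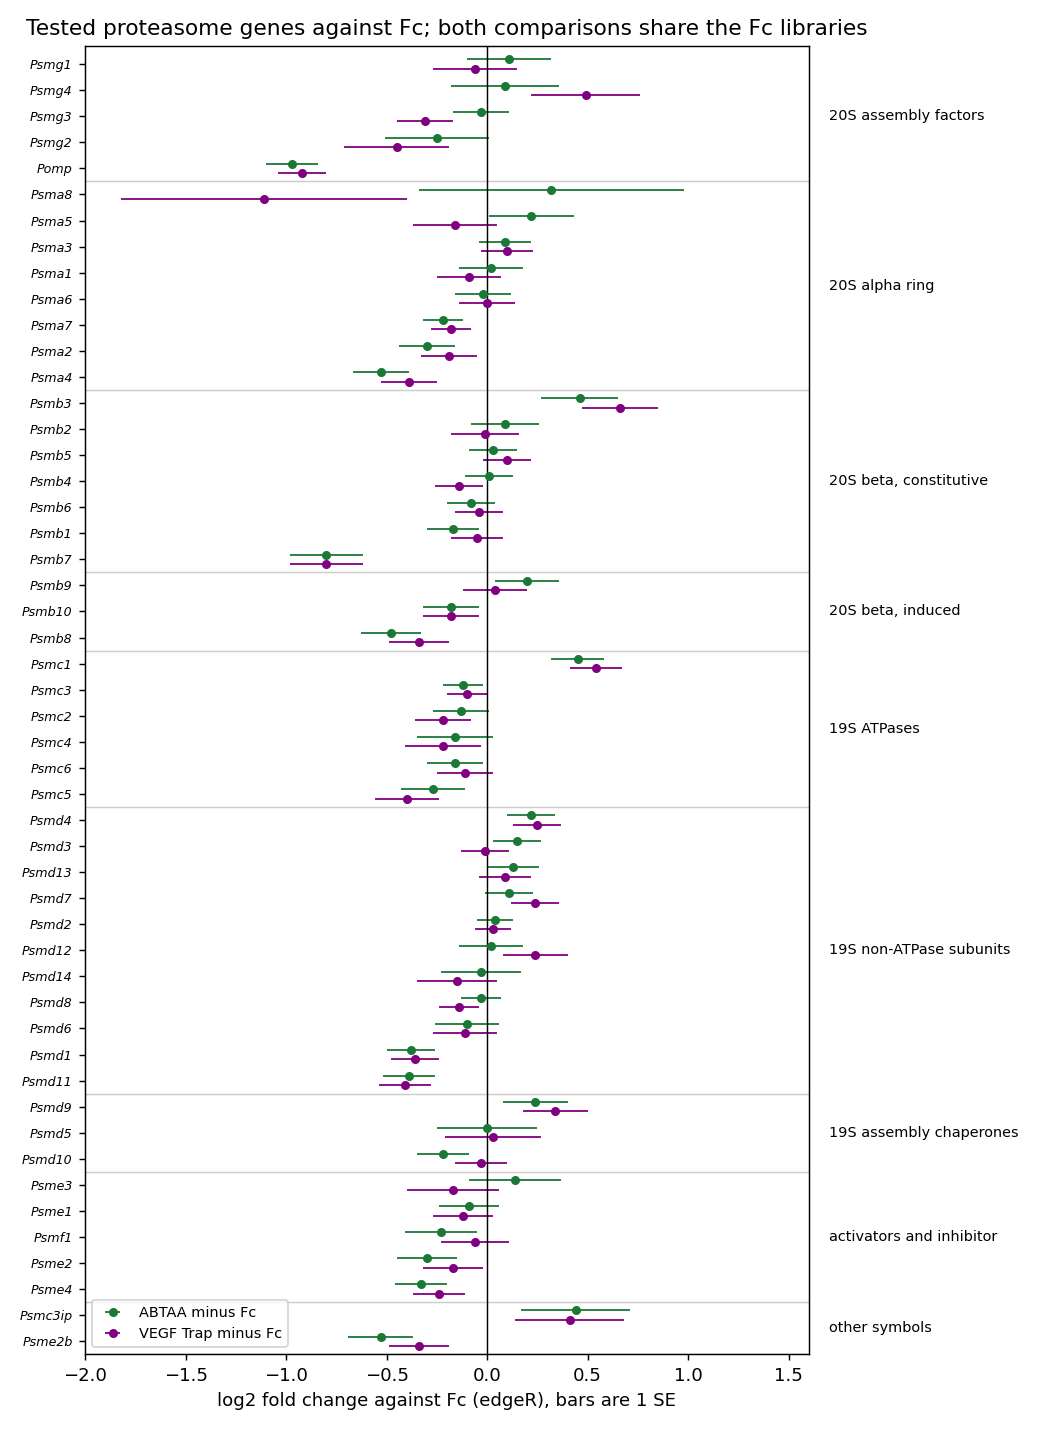
Log2 fold change against Fc (horizontal axis) of the 50 tested genes, grouped by role, for ABTAA (green) and VEGF Trap (purple), with bars of 1 SE. Pomp and Psmb7 lie farthest to the left in ABTAA, Psmc1 and Psmb3 lie to the right in both treatments, and most other genes lie within about 0.5 of 0.

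In the alpha ring, 0 of 8 genes passed in either treatment. Psma4 had the most negative log2 fold change among the well-measured ones. Its level was 59.9, 66.6 and 59.9 CPM in Fc and 49.1, 35.5 and 45.1 CPM in ABTAA. It was 50.8, 46.8 and 44.2 CPM in VEGF Trap. Each treated library was below each Fc library, and the log2 differences were -0.53 ± 0.14 (adjusted p = 0.0696) and -0.39 ± 0.14 (adjusted p = 0.17). Psma4 has a 3′ copy, Gm6542, that could take some of its reads. Psma3, another alpha subunit, hardly moved, at 32.3 ± 1.4 CPM in Fc, 34.4 ± 0.0123 in ABTAA and 34.7 ± 2.33 in VEGF Trap (0.09 ± 0.13 and 0.10 ± 0.13). Psma8, an alpha subunit of the testis, had 1 to 20 counts per library, with values of 0.32 ± 0.66 and -1.11 ± 0.71. The median over the 8 genes was 0.00 in ABTAA, with 4 below 0, and -0.17 in VEGF Trap, with 7 below 0. Their sum was 563 to 605 CPM in Fc, 498 to 532 in ABTAA and 506 to 534 in VEGF Trap. Much of its difference lay in 1 gene, Psma7, at 339 ± 15.6, 290 ± 21.3 and 300 ± 9.04 CPM (-0.22 ± 0.10, adjusted p = 0.267, and -0.18 ± 0.10, adjusted p = 0.419).

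Among the 7 constitutive beta genes, Psmb7 was the one that passed. Psmb3, a structural subunit with no cutting site, lay on the other side of 0. Its level was 30.1, 39.5 and 32.9 CPM in Fc, 43, 53.7 and 44.3 CPM in ABTAA, and 38, 55.9 and 68.6 CPM in VEGF Trap. VEGF Trap 1 fell inside the Fc range and the ABTAA libraries were all above it. The log2 differences were 0.46 ± 0.19 (adjusted p = 0.232) and 0.66 ± 0.19 (adjusted p = 0.097), and 4 other annotated genes hold copies of the 3′ end of Psmb3. Without VEGF Trap 1, the value for VEGF Trap was 0.87 and the adjusted p 0.0414, within a range of 0.00686 to 0.309 over its 18 alternatives. Psmb5, with chymotrypsin-like activity, had 85.4 ± 3.63, 87.3 ± 6.25 and 91.6 ± 9.76 CPM in Fc, ABTAA and VEGF Trap (0.03 ± 0.12 and 0.10 ± 0.12). Psmb6, with caspase-like activity, had 94.9 ± 2.75, 90.1 ± 10.1 and 92.6 ± 6 CPM (-0.08 ± 0.12 and -0.04 ± 0.12). The 95% interval of the difference was -0.22 to 0.28 for Psmb5 and -0.33 to 0.17 for Psmb6 in ABTAA, and -0.15 to 0.35 and -0.28 to 0.21 in VEGF Trap, so that of the cutting subunits Psmb7 alone was called.

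The induced counterparts did not move as a group, and 0 of the 3 tested passed. Psmb8, which takes the place of Psmb5, had 32, 31.3 and 34.7 CPM in Fc, 22.6, 21.2 and 26.8 CPM in ABTAA, and 30, 22.5 and 25.1 CPM in VEGF Trap. It was lower in all treated libraries, by -0.48 ± 0.15 (adjusted p = 0.118) and -0.34 ± 0.15 (adjusted p = 0.289). Psmb9, which takes the place of Psmb6, had 17.6 ± 1.12, 20.4 ± 3.23 and 18.2 ± 0.843 CPM (0.20 ± 0.16 and 0.04 ± 0.16), and an exon of its neighbour Tap1 overlaps it on the opposite strand. Psmb10, which takes the place of Psmb7, had 35.4 ± 4.87, 31.4 ± 2.98 and 31.3 ± 1.86 CPM (-0.18 ± 0.14 in both). Psmb11, the beta subunit of thymic epithelium, had 2 to 9 counts per library and was not tested.

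Ratios of counts within a library do not depend on how libraries are scaled, and only their change between libraries is read. The ratio of Psmb8 to Psmb5 was 0.379, 0.38 and 0.388 in Fc, 0.278, 0.226 and 0.309 in ABTAA, and 0.359, 0.254 and 0.245 in VEGF Trap. All treated libraries were below Fc, with VEGF Trap 1 close to it. The ratio of Psmb9 to Psmb6 was 0.174, 0.184 and 0.199 in Fc, 0.231, 0.21 and 0.234 in ABTAA, and 0.206, 0.19 and 0.194 in VEGF Trap, so it was higher in ABTAA and overlapped Fc in VEGF Trap. The ratio of Psmb10 to Psmb7 was 0.722, 0.714 and 0.866 in Fc, 1.37, 1.28 and 0.968 in ABTAA, and 1.62, 1.03 and 1.03 in VEGF Trap. It was higher in all treated libraries, but the ratio of Psmb10 to Psmb5 was not, at 0.372 to 0.457 in Fc, 0.298 to 0.409 in ABTAA and 0.292 to 0.4 in VEGF Trap. Counts of Psmb7 per count of Psmb5 were 0.516 to 0.576 in Fc, 0.232 to 0.392 in ABTAA and 0.247 to 0.334 in VEGF Trap. Psmb5 and Psmb8 have copies of their 3′ ends in other annotated genes, which could take some of their reads. The ratios got no test. Against Fc, that of Psmb8 was thus below, that of Psmb9 above in ABTAA and overlapping in VEGF Trap, and that of Psmb10 above, beside the lower Psmb7.

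**Figure D3:**
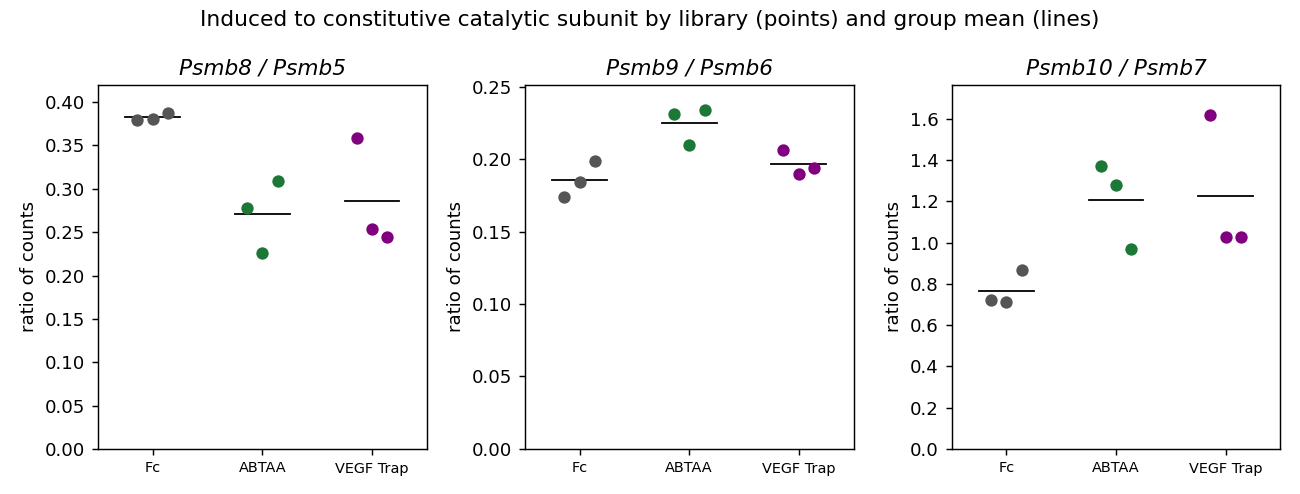
Ratio of counts of each induced cutting subunit to the constitutive subunit it replaces (vertical axes from 0), with a point for each library and a line for the group mean. Psmb8 to Psmb5 is lower in all treated libraries (Fc 0.379 to 0.388), Psmb9 to Psmb6 is higher in ABTAA, and Psmb10 to Psmb7 is higher in both treatments (Fc 0.714 to 0.866).

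Of the 6 ATPases of the 19S cap, 0 passed and 5 had values below 0 in each treatment, with Psmc1 the exception. Psmc1 had 150, 152 and 141 CPM in Fc, 209, 210 and 186 CPM in ABTAA, and 199, 187 and 261 CPM in VEGF Trap. All treated libraries were above all Fc libraries, and the means were 148 ± 6.07, 201 ± 13.5 and 216 ± 39.3 CPM. The log2 differences of 0.45 ± 0.13 (adjusted p = 0.0824) and 0.54 ± 0.13 (adjusted p = 0.0509) missed the threshold. They passed it in 3 of 18 alternatives for ABTAA, with adjusted p from 0.0163 to 0.26, and in 6 of 18 for VEGF Trap, from 0.00251 to 0.177. Psmc5, another ATPase of the ring, had 26.2 ± 2.13, 21.7 ± 2.43 and 19.9 ± 2.73 CPM, at -0.27 ± 0.16 (adjusted p = 0.418) and -0.40 ± 0.16 (adjusted p = 0.229). The 6 ATPases summed to 431 to 455 CPM in Fc, 450 to 482 in ABTAA and 443 to 530 in VEGF Trap.

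Among the 11 other cap subunits 0 passed, and their values lay on both sides of 0. Psmd11, a lid subunit that holds cap and core together, had 72.5, 78.2 and 79.9 CPM in Fc, 54, 55.8 and 67 CPM in ABTAA, and 52.2, 62 and 59.9 CPM in VEGF Trap. Psmd1, a scaffold of the cap's base, had 69.8, 78.9 and 77.8 CPM in Fc, 54.3, 54.3 and 65.9 CPM in ABTAA, and 58.6, 59.4 and 58.4 CPM in VEGF Trap. Both genes were lower in each treated library than in each Fc library. Psmd11 differed by -0.39 ± 0.13 (adjusted p = 0.132) and -0.41 ± 0.13 (adjusted p = 0.125), and Psmd1, picked out after its values were seen, by -0.38 ± 0.12 (adjusted p = 0.125) and -0.36 ± 0.12 (adjusted p = 0.152). Both have copies of their 3′ ends. Psmd4, a ubiquitin receptor, had 682, 762 and 734 CPM in Fc, 794, 903 and 847 CPM in ABTAA, and 748, 823 and 1025 CPM in VEGF Trap. It was above Fc in all ABTAA libraries and overlapped Fc in VEGF Trap (0.22 ± 0.12, adjusted p = 0.354, and 0.25 ± 0.12, adjusted p = 0.317).

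The chaperones that build the ATPase ring, Psmd5, Psmd9 and Psmd10, did not pass. Psmd9 had 15.3 ± 0.885 CPM in Fc, 18.1 ± 1.82 in ABTAA and 19.5 ± 1.87 in VEGF Trap, with all treated libraries above Fc and differences of 0.24 ± 0.16 and 0.34 ± 0.16. Psmd10, also known as gankyrin, had 63.8 ± 4.88, 55 ± 4.99 and 62.5 ± 6.59 CPM (-0.22 ± 0.13 and -0.03 ± 0.13). The 3 together summed to 86.8 to 97.4 CPM in Fc, 85.3 to 87.5 in ABTAA and 83.5 to 103 in VEGF Trap.

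The activators open the core's gate without ubiquitin, and 0 of 5 genes of this group passed. Psme1 and Psme2 form the interferon-induced activator of the cytosol. Psme1, whose 3′ end has a copy in Gm7776, had 45.1 ± 1.6, 42.2 ± 7.25 and 41.3 ± 6.24 CPM (-0.09 ± 0.15 and -0.12 ± 0.15). Psme2 had 29 ± 0.792, 23.4 ± 2.9 and 25.6 ± 3.72 CPM (-0.30 ± 0.15 and -0.17 ± 0.15). Psme2 and Psme2b share their 3′ ends, so their reads may be split between them, and Psme2b differed by -0.53 ± 0.16 (adjusted p = 0.0923) and -0.34 ± 0.15 (adjusted p = 0.29). Psme3, the nuclear activator, had 12.4 to 16.2 CPM in Fc and 10.6 to 21.5 CPM in ABTAA, a spread that contained the Fc range (0.14 ± 0.23, and -0.17 ± 0.23 in VEGF Trap). Psme4, a large activator of the nucleus, had 47.2 ± 2.42, 37.4 ± 4.2 and 39.8 ± 3.34 CPM, at -0.33 ± 0.13 (adjusted p = 0.215) and -0.24 ± 0.13 (adjusted p = 0.402). The inhibitor Psmf1 had 16.9 ± 1.12, 14.3 ± 1.43 and 16.2 ± 2.96 CPM (-0.23 ± 0.18 and -0.06 ± 0.17).

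Summed over all members, the family took 4230 to 4434 CPM in Fc, 4101 to 4373 in ABTAA and 4088 to 4588 in VEGF Trap. The groups overlapped, and they did so also without Pomp and Psmb7, at 3878 to 4092, 3946 to 4158 and 3909 to 4416 CPM. The 11 cap subunits without ATPase activity summed to 2004 to 2129, 2131 to 2287 and 2076 to 2448 CPM, and the constitutive beta genes to 465 to 525, 443 to 509 and 450 to 519 CPM. The sum of these cap subunits was thus above Fc in each ABTAA library and overlapped Fc in VEGF Trap. The gap in ABTAA was narrow, at 2131 against 2129 CPM. Much of the difference lay in 1 gene, Psmd4, at means of 726 CPM in Fc and 848 CPM in ABTAA. In ABTAA, 5 of the 11 genes had log2 values below 0. Within the family's total, Pomp had means of 295, 151 and 156 CPM. Why the total did not show the lower level of this 1 gene was not tested.

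**Figure D4:**
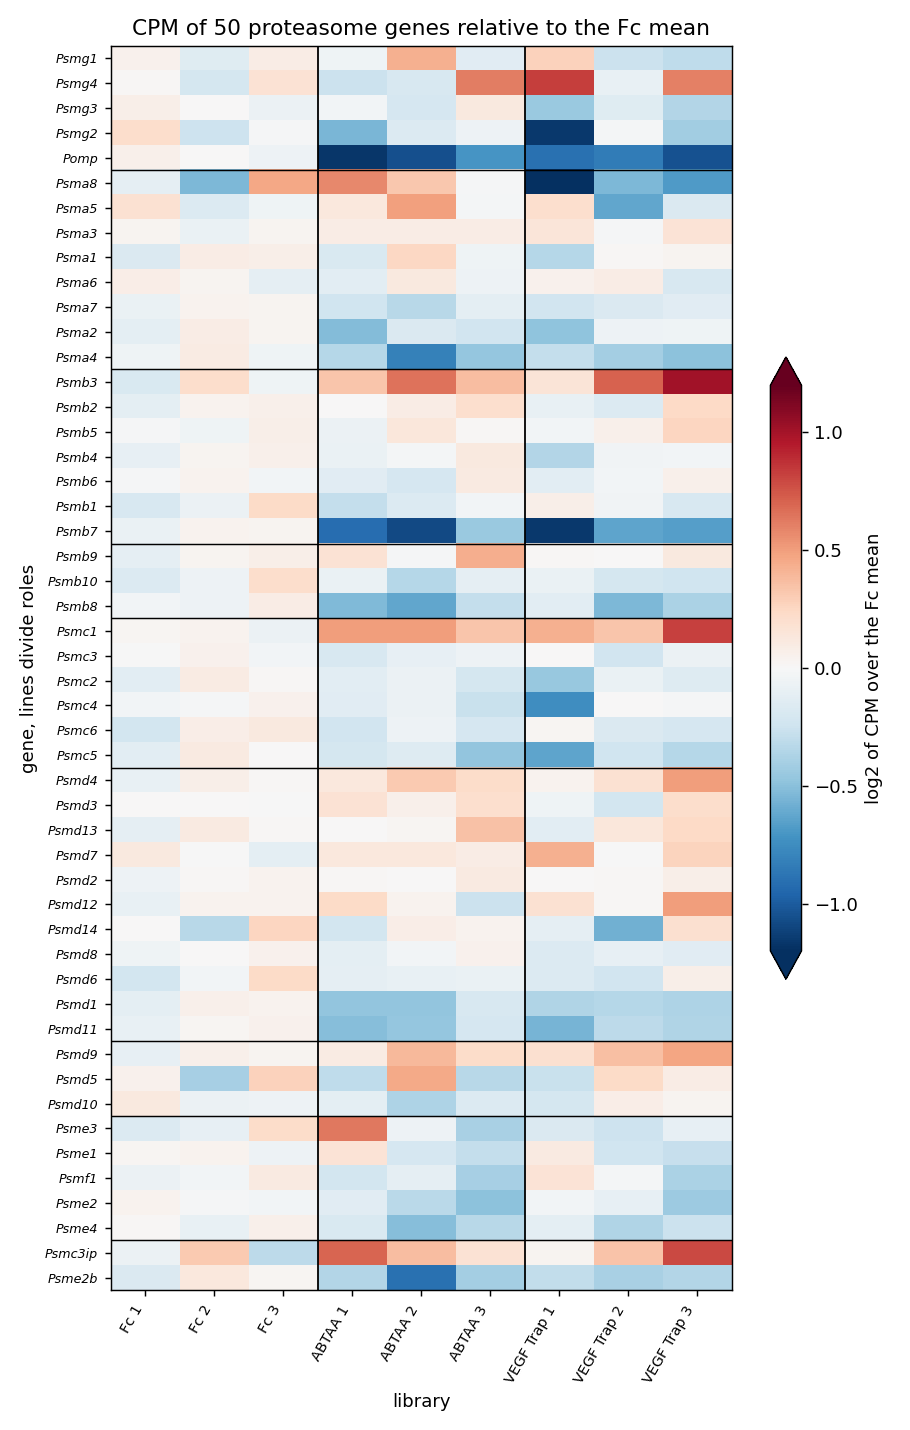
Log2 of each library's CPM over the Fc mean for the 50 tested genes (rows, grouped by role) in the 9 libraries (columns), with blue below and red above the Fc mean. Pomp and Psmb7 are blue in all 6 treated libraries, Psmc1 and Psmb3 are red, and neighbouring genes of the same role differ in colour.

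No member was called between ABTAA and VEGF Trap. In that comparison 0 of 50 members and 0 of 14054 genes (0%) were called by edgeR, 0 members had an unadjusted p under 0.05 (371 genes were higher and 340 lower at that level), and DESeq2 and limma-voom called 0 members. The difference between the treatments was -0.05 ± 0.13 for Pomp (95% interval -0.31 to 0.22), 0.00 ± 0.18 for Psmb7 (-0.38 to 0.39), -0.10 ± 0.13 for Psmc1 (-0.36 to 0.17) and -0.14 ± 0.15 for Psmb8 (-0.47 to 0.18). With 3 libraries a group, differences of the sizes inside these intervals are not excluded. The groups did not overlap for 1 member, Psma8, higher in ABTAA at 1.10 to 1.65 CPM against 0.0829 to 0.766, beside 5.14% of all genes higher and 4.74% lower without overlap, and VEGF Trap 1 was below the floor of 3 counts.

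Genes that work beside the proteasome were read from 5 lists. Of 10 tested subunits and cofactors with other symbols, 0 passed against Fc in either treatment. The ubiquitin receptor Adrm1 differed by 0.36 ± 0.13 in ABTAA (adjusted p = 0.187) and 0.20 ± 0.13 in VEGF Trap, and AI314180, the mouse gene of the adaptor ECPAS, by -0.37 ± 0.16 (adjusted p = 0.244) and -0.23 ± 0.16. Of 5 genes for proteasome transcription factors and their processing, 0 passed. Nfe2l1, which encodes NRF1, had 546 ± 30.7, 495 ± 16 and 475 ± 61.8 CPM (-0.14 ± 0.11 and -0.20 ± 0.11), and Ngly1, the glycanase that activates NRF1, differed by 0.48 ± 0.22 (adjusted p = 0.288) and 0.40 ± 0.22.

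Of 6 ubiquitin and activating enzyme genes, 0 passed. Rps27a, which encodes ubiquitin fused to a ribosomal protein, had 499 ± 21.7, 377 ± 58.4 and 365 ± 20.5 CPM, lower in each treated library than in Fc, at -0.40 ± 0.11 (adjusted p = 0.0844) and -0.45 ± 0.11 (adjusted p = 0.0676). Of 8 tested shuttle and segregase genes, 0 passed, and Ddi1 was at 0 counts in every library. The shuttle Ubqln2 differed by 0.33 ± 0.15 and -0.12 ± 0.15, and Rad23b by -0.22 ± 0.10 and -0.19 ± 0.10.

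Of 10 antigen processing genes, which use the peptides that the proteasome makes, 0 passed in ABTAA and 1 rose in VEGF Trap. Tapbp, the tapasin that loads peptides onto MHC class I, had 521, 493 and 433 CPM in Fc, 758, 566 and 554 CPM in ABTAA, and 823, 644 and 749 CPM in VEGF Trap. All treated libraries were above Fc. It rose by 0.62 ± 0.13 in VEGF Trap (adjusted p = 0.0448), with 0.38 ± 0.13 in ABTAA (adjusted p = 0.161). The VEGF Trap call was lost without Fc 1, 2 or 3 (adjusted p = 0.0853, 0.163 and 0.126) and without VEGF Trap 1 or 3 (0.0842 and 0.113), kept in the other 4 omissions, within a range of 0.000363 to 0.163 over 18 alternatives. The immunoproteasome gene Psmb8 lay below Fc in the same libraries.

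Markers of other cell types were read beside Pomp, Psmb7 and Psmb8. Some skeletal muscle and melanocyte markers rose in both treatments, while calls among macrophage, neutrophil and endothelial markers were seen in ABTAA and not in VEGF Trap. The 12 macrophage and microglia markers summed to 1892 to 2032 CPM in Fc, 1487 to 1731 in ABTAA and 1776 to 2050 in VEGF Trap, with 2 of 12 called lower in ABTAA and 0 in VEGF Trap. Neutrophil markers, 3 of 5 tested, summed to 89.4 to 524, 47.1 to 64.7 and 53.3 to 110 CPM, with 1 called lower in ABTAA. The median log2 difference of the 3 was -2.16 in ABTAA and -1.81 in VEGF Trap. The 12 endothelial markers summed to 1826 to 2327, 2801 to 2931 and 2150 to 2371 CPM, with 5 called higher in ABTAA and 0 in VEGF Trap. The 10 skeletal muscle markers summed to 94.5 to 139, 209 to 428 and 196 to 344 CPM, with 9 called higher in ABTAA and 3 in VEGF Trap. The 6 melanocyte markers summed to 2103 to 2398, 2763 to 2831 and 2209 to 4003 CPM, with 1 called higher in ABTAA and 2 in VEGF Trap. In these 5 lists, 0 markers were at 0 in every library, and 0 were called between ABTAA and VEGF Trap. Their part in the values of the proteasome genes was not tested.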

How the data were processed

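RNA was measured in 9 libraries, 3 each of Fc, ABTAA and VEGF Trap. Each table deposited by the authors holds counts per gene symbol, whole numbers with no normalization. Per the labels' protocols, libraries were made from 500 ng of total RNA with the LEXOGEN Quant-Seq kit, and Bowtie2, edgeR and the mm10 build are named per the submitters' processing notes. Their versions, the annotation, the strand setting and how reads with several matches were counted are not given in the files or labels.

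Among the 14167 genes counted in each library, 14.53% have 9 counts that share a divisor above 1, among them 4 members (Psmd2, Psmd4, Psme2 and Psmf1), so a read may have been entered more than once and counting error may be larger than the counts show. Libraries of a group differed by more than the counting noise of reads entered once (chi-square over its degrees of freedom 8.506 to 20.45). Each was kept as a replicate. Reads entered more than once would also raise this value, and it does not tell technical from biological replicates. The tables had 0 lines without a gene name and 0 unused columns of values.

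After filterByExpr and TMM scaling, the quasi-likelihood test of edgeR 4.0.16 was run in R 4.3.3, in 1 model of all 9 libraries with 6 residual degrees of freedom. The SE is a log2 fold change over the square root of F. Intervals cover 95%. The procedure was tried on simulated data whose changes, set in ABTAA alone, were larger than most differences reported here. The trial does not cover small differences. Sums and ratios over members got no test. Alternatives were DESeq2 1.42.0, limma-voom (limma 3.58.1) with quality weights, RLE factors, library totals alone, no filter, 10 counts in 6 libraries, a fit of the compared groups alone, a replicate block, counts divided by their common divisor, and each library left out with the filter run again.

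Named were members past the threshold, Pomp, the 6 cutting subunits, the activators and the inhibitor, the largest positive and negative value of each role in either comparison with Fc, untested members, and of each partner list the called genes or, with none, the 2 smallest p in ABTAA. A gene that this rule names is not reported here. Psmd1, Psme2b, Psmg2, Psmg3, Psma7 and Nek6 were added after values were seen. Members and lists were chosen with earlier results of these data known.

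All 51 members matched GENCODE M21. The last 200 bases of their 114 transcripts were searched against all annotated transcripts with BLAST+ 2.17.0. A copy is a hit of 100 bases or more at 95% identity or more. By this count 15 members have a copy and 12 overlap an exon on the other strand. Promoters are RefSeq's, and 43 members are in that table.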

Additional observations from a re-analysis of the deposited data

How the results depend on the processing

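The number of members called against Fc depended on the setting, and so did the number of all genes called, given in brackets. In ABTAA it was 2 (197 of all genes), and 6 with DESeq2 (750) and 5 without a filter on low counts (684). In VEGF Trap it was 2 (144), and 5 with DESeq2 (671) and 4 without a filter (616). With each library left out it ran from 0 to 2 in ABTAA (0 to 373 of all genes, both 0 without ABTAA 2) and from 1 to 2 in VEGF Trap (7 to 144). Apart from the replicate block, the remaining settings gave 2 or 3, and ABTAA against VEGF Trap gave 0 in every setting. The cause was not tested.

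Whether the replicate numbers pair the libraries is not known, and the main model had no block. Same-numbered libraries correlated from 0.007 to 0.208 in their deviations from the group means. Differently numbered libraries correlated from -0.149 to 0.078. With the replicate block the count was 2 in ABTAA (334 of all genes) and 4 in VEGF Trap (300), namely Pomp, Psmb3, Psmb7 and Psmc1.

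Among the genes followed across settings (the named members and partners, and members whose libraries did not overlap Fc in both treatments), 15 values changed sign, and none had passed the test. Over all members, those below 0 numbered 26 to 34 in ABTAA and 31 to 39 in VEGF Trap, with 34 and 39 under library totals alone. With library totals alone, Psmb5 was -0.01 in ABTAA and Psmb9 -0.04 in VEGF Trap, and with limma-voom Psmd10 was 0.01 in VEGF Trap. With a library left out, values in ABTAA ran for Psmb5 from -0.02 to 0.08, Psme3 from -0.21 to 0.32, Psmg1 from -0.08 to 0.21 and Psmg4 from -0.22 to 0.24, where -0.00 was that without Fc 2. In VEGF Trap they ran for Psmb6 from -0.08 to 0.02, Psmb9 from -0.01 to 0.07, Psmd10 from -0.09 to 0.06 with 0.03 without Fc 1, Psmf1 from -0.17 to 0.07 and Psmg1 from -0.27 to 0.03. Of the values for single genes under all alternatives, 1229 kept their direction and side of the threshold, 28 newly passed it and 19 no longer did. Library totals alone moved the median of all genes to -0.05 in ABTAA and to -0.08 in VEGF Trap. With 3 libraries a group and a median SE of 0.14, small differences of single subunits are beyond what these data resolve.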
